A study of Rattus norvegicus with 8 samples.

Results

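Motor neurons of the ventral horn release acetylcholine onto muscle. The 10 genes described here are the working parts of these cells and of their transmitter: Chat, Slc18a3, Slc5a7 and Ache for the synthesis, packaging, uptake and breakdown of acetylcholine and its choline, Isl1, Isl2 and Mnx1 for motor neuron identity, Prph for the cytoskeleton, and Chrm2 and Chrna4 for reception. They were chosen by name as a measure of how much ventral horn each RNA sample held, with earlier results of these data known. The 10 genes stand among 16388 gene names on the array, with locus and sequence identifiers left out. A match by name found 9 genes with 10 probes that were no control probes. Mnx1, the motor neuron homeobox gene, was carried only under its older symbol Hlxb9 and brought the set to 10 genes and 11 probes. Chrm2 was the gene with more than 1 probe. All 11 probes were well above background on all 8 arrays, so every gene was measured in every rat.

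The study asked how repeated stress changes gene expression in the part of the spinal cord that serves the pelvic viscera. Both groups were male Wistar rats, 12 weeks old. The 4 stressed rats went through water avoidance (WA) stress, in which a rat is left on a small platform surrounded by water, on 10 days, and their tissue was taken 24 h after the last session. The 4 control rats had no WA stress and, by the paper's summary, were handled over the 10 days. The lumbar L6S1 cord was pushed out of the spine with saline and stripped of its meninges, and each rat gave 1 array. These are whole segments with dorsal and ventral horn, white matter and glia together. Fewer cells of a type and less RNA per cell cannot be told apart in such tissue.

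In the spinal cord, acetylcholine is made by motor neurons, by autonomic preganglionic neurons and by a small set of interneurons. Choline acetyltransferase (Chat) makes it in the cytoplasm, the vesicular transporter (Slc18a3, also called VAChT) loads it into vesicles, acetylcholinesterase (Ache) splits it outside the cell, and the high-affinity transporter (Slc5a7, also called CHT1) brings the choline back. The LIM homeobox factors Isl1 and Isl2 and the factor Mnx1 (HB9) set motor neuron fate in the embryo and remain in many adult motor neurons. Isl1 is also found in sensory neurons and in dorsal interneurons, and Prph, a neurofilament-like protein, also in sensory neurons, so that neither is limited to the ventral horn.

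The sequences of the probes behind the results that follow are given for the pairs that were compared and for the probes that the files left unmapped. Chat and Slc18a3 are shown as they share a locus, in which Slc18a3 lies within Chat in the RefSeq annotation. Their probes lay on the minus strand of rn4, at chr16:7913067-7913126 for Chat and chr16:7970157-7970216 for Slc18a3, 57090 bases apart. The 2 Chrm2 probes lay on the plus strand at chr4:63915250-63915309 (position 436 of the transcript) and chr4:63916605-63916664 (position 1791). They are shown as they read 1 transcript at these 2 positions, and by their order are called the 5′ and the 3′ probe here. The capitals in the 5′ probe mark an ATG at base 16 of the probe, after which no stop codon follows in frame within the probe. Ache and Mnx1 are shown as the files give their probes no position. Exons and untranslated regions were not analysed here.
Chat: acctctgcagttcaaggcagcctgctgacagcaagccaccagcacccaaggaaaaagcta
Slc18a3: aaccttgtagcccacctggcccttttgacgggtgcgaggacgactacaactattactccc
Chrm2 5′ probe: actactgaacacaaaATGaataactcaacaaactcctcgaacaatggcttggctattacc
Chrm2 3′ probe: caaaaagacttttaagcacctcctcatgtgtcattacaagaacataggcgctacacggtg
Ache: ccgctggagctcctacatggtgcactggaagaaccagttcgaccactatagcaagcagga
Mnx1 (Hlxb9): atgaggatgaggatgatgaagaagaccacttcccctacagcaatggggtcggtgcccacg

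Each value is the log2 of the signal over the array's own 75th percentile, written as log2 signal. A value of 0 is therefore the 75th percentile itself, and a difference of 1 is a doubling. Before scaling, this percentile ran from 1837.3 to 2331.9 intensity units in control rats and from 1739.1 to 1932.4 in stressed rats. Different probes bind their targets unequally, so levels were compared between rats for 1 probe and not between genes. The change of 1 probe relative to another was followed for 2 pairs of probes. Differences are stressed minus control, with the standard error (SE) and the p adjusted over all 23677 tested probes by limma. The exact permutation test of a single value runs over the 70 possible choices of 4 of the 8 arrays, is two-sided and cannot give a p below 0.0286.

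Some arrays stood apart from the rest. All arrays were on 1 slide, with stressed rats in row 1 and control rats in row 2, so that row and stress cannot be told apart. The 5′ minus 3′ difference of an array compares the first and the last tested probe of 1887 transcripts and is centred over the arrays. It was -0.30, -0.30 and -0.18 in control replicates 1, 3 and 4. The stressed rats had values from 0.09 to 0.17, and control replicate 2, at 0.22, stood with them. This difference otherwise followed the groups, so fits that use it as a covariate rest largely on control replicate 2. Stressed replicate 3 was set apart by some of its caudal Hox genes, which mark the lower levels of the cord. Of the 5 measured, 4 were lowest in this rat. Hoxc11 had a log2 signal of -5.09 there and -2.57 in stressed replicate 2, against -0.55 to 0.04 in the other 6 rats. Hoxa10 was at -3.46 in stressed replicate 3 and at -0.32 in stressed replicate 2, against 0.28 to 0.53 in the others. Hoxd10 was at 0.44 against 1.44 to 2.27, and Hoxd9 was only slightly lower, at 2.15 against 2.24 to 2.81. Hoxa9 went the other way, as its 2.15 was the highest of the 8 rats, above 1.72 to 2.13 in the others. Member results that rest on these arrays are given with and without them.

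None of the 10 genes differed between stressed and control rats at FDR below 0.1 or below 0.05. Of all tested probes, 3.68% were called at FDR below 0.1 and 0.604% at FDR below 0.05. At an unadjusted p below 0.05 in limma, 1 of the 10 genes (Ache) passed, beside 20.3% of all tested probes. The groups did not overlap in 1 gene (Ache), beside 12.1% of all tested probes. The mean was higher in stressed rats for 4 genes, lower for 5, and Slc5a7 had a difference of 0.00. The median of the 10 log2 differences was -0.09, and that of all tested probes was 0.07.

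**Figure D1:**
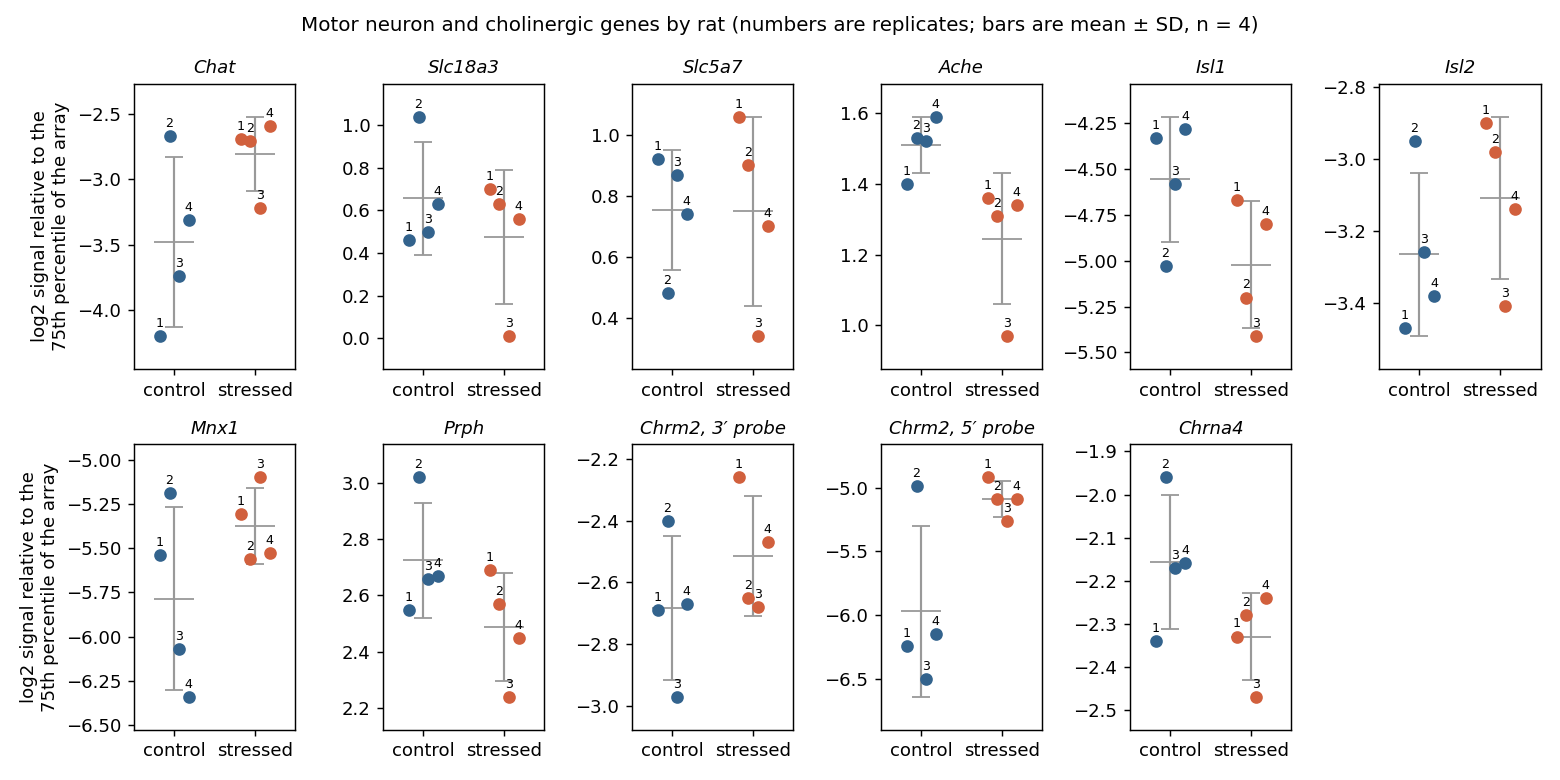
Log2 of the signal over the array's 75th percentile (vertical axes, each with its own scale) for the 11 probes of the 10 genes in 4 control (blue) and 4 stressed (orange) rats. Points are rats with their replicate number, and grey bars are mean ± SD (n = 4). Ache is the gene in which all 4 stressed rats lie below all 4 control rats, and stressed replicate 3 is the lowest point in 6 genes.

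Chat, the enzyme that makes acetylcholine, had log2 signals of -4.20, -2.67, -3.74 and -3.31 in control replicates 1 to 4. In stressed replicates 1 to 4 they were -2.69, -2.71, -3.22 and -2.59. Stressed replicate 4 was the highest of all, control replicate 2 lay among the stressed rats and control replicate 1 was far below. The means were -3.48 ± 0.65 in control rats and -2.80 ± 0.28 in stressed rats (SD, n = 4 each). The difference was 0.68 (SE 0.31, 95% confidence interval -0.05 to 1.40, limma adjusted p = 0.269, exact permutation p = 0.114), which did not pass the test. It was 0.95 without control replicate 2 (limma adjusted p = 0.0231) and 0.03 (limma adjusted p = 0.962) in a fit that had the arrays' 5′ minus 3′ difference as a covariate.

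Slc18a3, the vesicular transporter encoded inside the Chat locus, had log2 signals of 0.46, 1.04, 0.50 and 0.63 in control replicates 1 to 4. Stressed replicates 1 to 4 had 0.70, 0.63, 0.01 and 0.56. Control replicate 2 stood above and stressed replicate 3 below, and between them the groups were mixed. The difference was -0.19 (SE 0.19, 95% confidence interval -0.62 to 0.24, limma adjusted p = 0.581). It was -0.03 without stressed replicate 3 and 0.09 with control replicate 2 and stressed replicate 3 both left out. With the covariate it was -0.47 (SE 0.21, limma adjusted p = 0.249).

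Chat and Slc18a3 thus had differences of opposite sign. Taken within each array, the log2 signal of Chat minus that of Slc18a3 was -4.67, -3.71, -4.25 and -3.94 in control rats. It was -3.39, -3.34, -3.23 and -3.15 in stressed rats. The size of this ratio carries the unequal binding of the probes, but its change between rats does not. All 4 stressed rats were above all 4 control rats, and control replicate 2 was the control nearest to them. The means were -4.14 ± 0.41 and -3.28 ± 0.11 (SD, n = 4 each), a difference of 0.86. It was 1.01 without control replicate 2 and 0.50 with the 5′ minus 3′ covariate. This ratio was picked after its values were seen and was not tested.

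Slc5a7, which returns choline to the terminal, had log2 signals of 0.92, 0.48, 0.87 and 0.74 in control replicates 1 to 4. The stressed rats had 1.06, 0.90, 0.34 and 0.70. Stressed replicate 1 was the highest and stressed replicate 3 the lowest, and control replicate 2 was the lowest control. The difference was 0.00 (SE 0.17, 95% confidence interval -0.39 to 0.39, limma adjusted p = 0.991), and it was 0.13 without stressed replicate 3 and 0.21 with the covariate. Its probe lay at chr9:165495-165554 of rn4.

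Ache, which breaks acetylcholine down, was the gene with the clearest split. Control replicates 1 to 4 had log2 signals of 1.40, 1.53, 1.52 and 1.59. In stressed replicates 1 to 4 they were 1.36, 1.31, 0.97 and 1.34. Every stressed rat was below every control rat, though stressed replicate 1 and control replicate 1 nearly met. The means were 1.51 ± 0.08 in control and 1.24 ± 0.18 in stressed rats (SD, n = 4 each). The difference was -0.27 (SE 0.10, 95% confidence interval -0.50 to -0.03, limma unadjusted p = 0.0334 and adjusted p = 0.214). The exact permutation p was 0.0286, the smallest this design can give. Stressed replicate 3 contributed a part of it, as the difference was -0.18 without that rat. It was -0.28 with the 5′ minus 3′ covariate, and it lay between -0.30 and -0.18 in the fits that left out a single array.

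Isl1, the LIM homeobox factor, had log2 signals of -4.33, -5.03, -4.58 and -4.28 in control replicates 1 to 4. Stressed replicates 1 to 4 had -4.67, -5.20, -5.41 and -4.80. Stressed replicates 2 and 3 were the lowest, and control replicate 2 was lower than 2 of the stressed rats. The difference was -0.47 (SE 0.22, 95% confidence interval -0.97 to 0.04, limma adjusted p = 0.271). Without control replicate 2 it was -0.63 (limma adjusted p = 0.0443), and with the covariate it was -0.12. It was -0.17 with normexp background correction (limma adjusted p = 0.819) and -0.69 under quantile normalization (limma adjusted p = 0.226). The intensity of Isl1 before scaling was low, between 45.3 and 120.3 units. The probe lay at chr2:48052237-48052296 of rn4 on the minus strand.

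Isl2, its paralog, had control log2 signals of -3.47 to -2.95 and stressed log2 signals of -3.41 to -2.90, which overlapped almost in full. The difference was 0.16 (SE 0.15, limma adjusted p = 0.555), opposite in sign to that of Isl1. Its sign turned under quantile normalization (-0.03) and with the covariate (-0.07), and with control replicate 2 and stressed replicate 3 both left out it was 0.37 (limma adjusted p = 0.0338).

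Mnx1 had log2 signals of -5.54, -5.19, -6.07 and -6.34 in control replicates 1 to 4. The stressed rats had -5.31, -5.56, -5.10 and -5.53. Control replicates 3 and 4 were low, and the other 6 rats were mixed. Its intensity before scaling was between 28.8 and 56.1 units, from a single spot. The difference was 0.41 (SE 0.25, limma adjusted p = 0.373). It was 0.61 without control replicate 2 (limma adjusted p = 0.0600) and 0.02 with the covariate. Here stressed replicate 3 was the highest rat, where it was the lowest for Isl1.

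Prph, the intermediate filament of motor and sensory axons, had log2 signals of 2.55, 3.02, 2.66 and 2.67 in control replicates 1 to 4. In stressed replicates 1 to 4 they were 2.69, 2.57, 2.24 and 2.45. Control replicate 2 was the highest and stressed replicate 3 the lowest, with the rest mixed. The difference was -0.24 (SE 0.13, limma adjusted p = 0.341, exact permutation p = 0.200). It was -0.14 without control replicate 2 and -0.46 (limma adjusted p = 0.110) with the covariate. The probe was mapped to chr7:137839568-137839627 of rn4.

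Chrm2 encodes an inhibitory muscarinic receptor, and its probes gave different pictures. The 3′ probe had log2 signals of -2.69, -2.40, -2.97 and -2.67 in control replicates 1 to 4 and of -2.26, -2.65, -2.68 and -2.47 in the stressed rats. The groups overlapped, with a difference of 0.17 (SE 0.14, limma adjusted p = 0.524). The 5′ probe had -6.24, -4.99, -6.50 and -6.15 in control rats and -4.92, -5.09, -5.26 and -5.09 in stressed rats. Control replicates 1, 3 and 4 were far below the other 5 rats, and control replicate 2 was among the stressed rats. The difference of the 5′ probe was 0.88 (SE 0.30, 95% confidence interval 0.18 to 1.58, limma unadjusted p = 0.0205 and adjusted p = 0.182). It was 1.21 without control replicate 2 (limma adjusted p = 0.000863) and 0.13 with the covariate (limma adjusted p = 0.623). The intensity of the 5′ probe before scaling was low, between 25.4 and 58.2 units. Within each array the 5′ minus the 3′ probe was -3.55, -3.53 and -3.48 in control replicates 1, 3 and 4, against -2.58 in control replicate 2 and -2.66 to -2.44 in stressed rats. The probes of this transcript thus split the arrays in the same way as the 5′ minus 3′ difference over all transcripts. This pair is itself among the transcripts that gave that difference.

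Chrna4, a nicotinic receptor subunit, had log2 signals of -2.34, -1.96, -2.17 and -2.16 in control replicates 1 to 4. Stressed replicates 1 to 4 had -2.33, -2.28, -2.47 and -2.24. Control replicate 1 was within the range of the stressed rats, and the other controls were above them. The difference was -0.17 (SE 0.10, limma adjusted p = 0.352, exact permutation p = 0.114), or -0.10 without control replicate 2 and -0.31 (limma adjusted p = 0.134) with the covariate. The span of its probe, chr3:170171576-170174943 of rn4, is far longer than the probe.

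The number of genes called depended on which arrays were used. Without control replicate 2, limma called 3 of the 10 genes at FDR below 0.1, with Chat and Mnx1 higher and Isl1 lower in stressed rats. The same fit called 42.3% of all tested probes. With control replicate 2 and stressed replicate 3 both left out, a setting chosen after seeing the data, Chat and Isl2 were higher and Isl1 was lower, which are 3 of 10 genes beside 38.6% of all probes. In the fit with the 5′ minus 3′ covariate none was called, beside 9.73% of all probes. The members' share was below that of all tested probes in each of these 3 fits. With a weight for each array, it was above, at 6 of 10 genes beside 50.6% of all probes. Without stressed replicate 3 alone, none of the 10 genes was called.

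**Figure D2:**
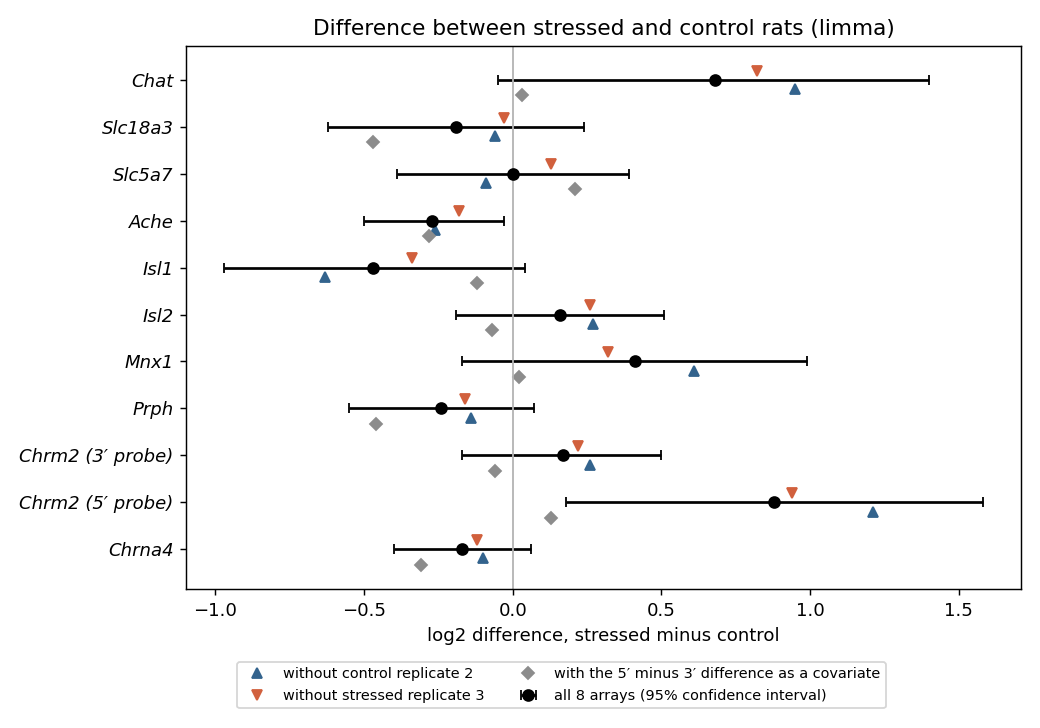
Log2 difference of stressed minus control rats (horizontal axis) for each probe (vertical axis) from limma. Black points and bars are the fit on 8 arrays with its 95% confidence interval, triangles are fits without 1 array, and grey diamonds are from the fit with the 5′ minus 3′ covariate. For Chat and for the 5′ probe of Chrm2, the covariate brings the difference from 0.68 to 0.03 and from 0.88 to 0.13, and leaving out control replicate 2 takes it to 0.95 and 1.21.

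Stressed replicate 3 was the lowest of the 8 rats in 6 of the 10 genes, namely Slc18a3, Slc5a7, Ache, Isl1, Prph and Chrna4. Over all tested probes, 13.7% were lowest in this rat. Control replicate 2 was the highest in Slc18a3, Prph and Chrna4, 3 of the 10 genes, beside 31.7% of all tested probes. Stressed replicate 3 was also the lowest rat in 4 of the 5 Hox genes, and the part of cord level in the member genes was not tested. Its mean over the 20 genes of the cholinergic pathway, centred over the arrays, was -0.04, and over the 26 motor neuron genes 0.03, within the range of the other rats. Its mean over the 19 dorsal horn genes was -0.22, the lowest of the 8 rats. These lists share no gene with the 10 described here.

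The set was proposed as a measure of ventral horn content, which raises the question of how far its genes varied together from rat to rat. Over the 45 pairs of genes the median Pearson r across the 8 arrays was 0.27, with a range from -0.69 to 0.93. The r was above 0 in 32 pairs and at least 0.7 in 9 pairs. These were 20.0% of the pairs, against 11.1% of all pairs of tested gene names, whose median r was 0.06. Pairs share genes and arrays, so the counts are descriptions. After Benjamini-Hochberg adjustment over the 45 pairs no permutation p was below 0.05 (the lowest was 0.221), and 9 were below 0.05 before adjustment.

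Slc18a3 and Prph were the closest pair, with r = 0.93 and rho = 0.88 (permutation p = 0.00858 and 0.00724, adjusted p = 0.221 and 0.231). Without the 2 arrays farthest from the median of Slc18a3, r was 0.42, so the relation rests mostly on these arrays. Chat and Isl2 had r = 0.81 and rho = 0.74 (permutation p = 0.0192 and 0.0458, adjusted p = 0.221 and 0.258), and r was 0.88 without the 2 arrays farthest from the median of Chat. Ache and Chrna4 had r = 0.80 and rho = 0.76 (permutation p = 0.0245 and 0.0368, adjusted p = 0.221 and 0.258), with r = 0.76 without the 2 farthest arrays. Among the other pairs with r of at least 0.7, leaving out the 2 farthest arrays took Prph with Chrna4 from 0.88 to 0.23. Slc18a3 went from 0.84 to -0.05 with Chrna4 and from 0.76 to -0.14 with Ache. Ache with Isl1 went from 0.72 to 0.18. Little changed for Ache with Prph, from 0.79 to 0.73, and for Chat with Chrm2, from 0.70 to 0.68. The lowest r was that of Isl1 and Mnx1, at -0.69 with rho = -0.69 (permutation p = 0.0564 and 0.0694, adjusted p = 0.239 and 0.312) and -0.70 without the 2 farthest arrays.

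Chat and Slc18a3, in spite of their shared locus, had r = 0.41 and rho = 0.55 (permutation p = 0.312 and 0.171, adjusted p = 0.701 and 0.547), with r = 0.56 without the 2 farthest arrays. When the mean of each group was first removed, r was 0.84 for this pair and the median over all pairs of members was 0.48. The r of Chat with Chrna4 was then 0.95, that of Slc18a3 with Prph 0.95, and that of Isl2 with Prph 0.98. Slc5a7, Isl1 and Mnx1 did not run with Chat, whose r was -0.21 with Slc5a7, -0.26 with Isl1 and 0.10 with Mnx1. With Ache, however, r was 0.59 for Slc5a7, 0.49 for Isl1 and -0.48 for Mnx1. Without control replicate 2 and with group means kept, Slc5a7 had r = 0.85 with Slc18a3 and 0.86 with Prph, against 0.27 and 0.18 on all arrays. Its r without that array was -0.03 with Chat and -0.24 with Mnx1. No p was computed for the values with group means removed or without control replicate 2. No background over all tested genes was computed with group means removed, so whether other genes reach such values was not tested.

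**Figure D3:**
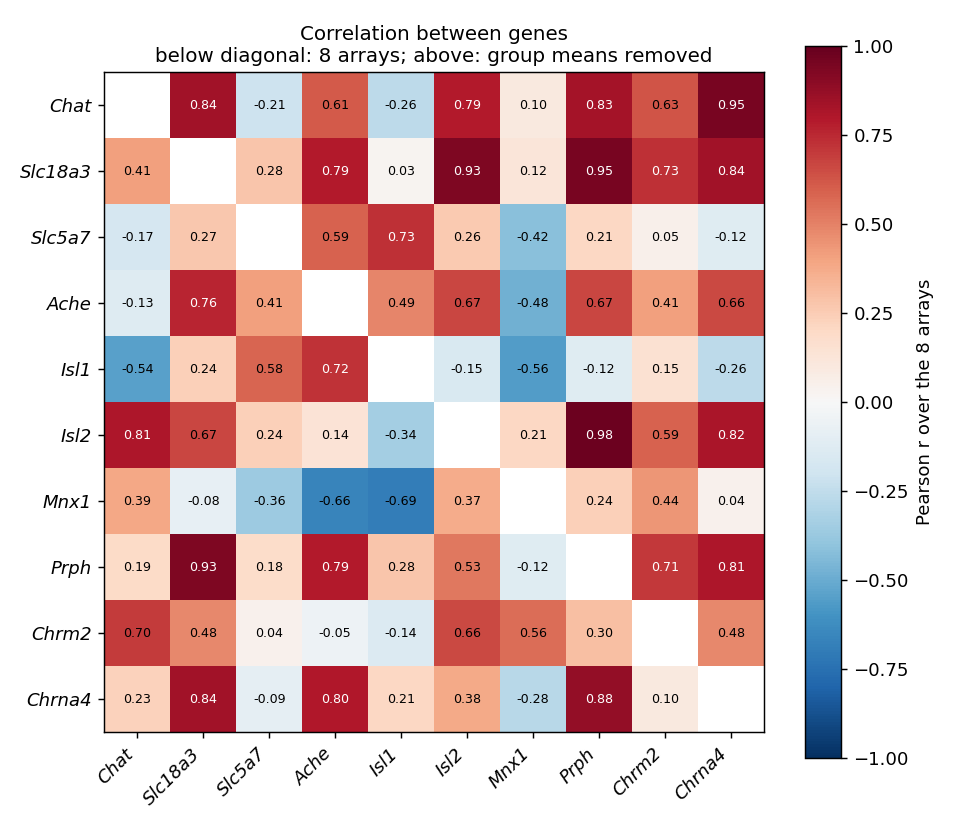
Pearson r between the log2 signals of each pair of genes over the 8 arrays. Values below the diagonal are from the 8 arrays as measured, and values above it have each group's mean removed first. Red is positive and blue negative. Slc18a3 with Prph reaches 0.93 and Isl1 with Mnx1 is at -0.69 as measured.

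A list of 26 other genes of acetylcholine handling and reception gave no call either on the 8 arrays. Of the 20 tested, 0 passed at FDR below 0.1, 1 was higher and 2 were lower at an unadjusted p below 0.05 in limma, and the median log2 difference was -0.11. Without control replicate 2, 6 were called higher and 4 lower, beside 42.3% of all tested probes. With the covariate 1 was called lower, beside 9.73% of all tested probes. The highest value in this list was that of Chrna7, a homomeric nicotinic receptor, at 0.64 (SE 0.36, limma adjusted p = 0.344). It was 1.02 without control replicate 2 (limma adjusted p = 0.00374) and its sign turned with the covariate (-0.21). The lowest value was that of Chrna9, at -0.50 (SE 0.28, limma adjusted p = 0.336). The excitatory muscarinic receptor Chrm3 had control log2 signals of -0.95 to -0.61 and stressed log2 signals of -1.52 to -1.09, which did not overlap. Its difference was -0.47 (SE 0.13, limma adjusted p = 0.128), named after its values were seen. It passed without control replicate 2, at -0.39 (limma adjusted p = 0.0477), and with the covariate, at -0.63 (limma adjusted p = 0.0812).

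In a list of 30 other motor neuron genes, 0 of 26 tested passed at FDR below 0.1, and 3 were higher and 0 lower at an unadjusted p below 0.05 in limma. The median log2 difference was 0.03. Without control replicate 2, 10 were called higher and 1 lower, beside 42.3% of all tested probes. With the covariate 1 was called lower, beside 9.73% of all tested probes. Etv1, an ETS factor of motor and sensory neuron pools, had the largest difference. Its control log2 signals were -4.68, -3.19, -4.97 and -4.34, and its stressed ones -3.37, -3.0, -2.41 and -3.25. Control replicate 2 was again among the stressed rats, and the difference was 1.29 (SE 0.39, limma adjusted p = 0.147). Without control replicate 2 it was 1.66 (limma adjusted p = 0.00403), and with the covariate 0.40. The lowest was Calca, the peptide CGRP of motor and sensory neurons, at -0.25 (SE 0.28, limma adjusted p = 0.625), or -0.50 with the covariate.

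The other neurons of the cord were measured for comparison. Over all tested probes, 3.68% were called at FDR below 0.1 on the 8 arrays, 42.3% without control replicate 2 and 9.73% with the covariate. Among ventral interneuron genes, 0 of 10 tested passed, with a median of 0.10, from Lhx1 at -0.19 to Sox14 at 0.67 (SE 0.27, limma adjusted p = 0.222). Lhx1 was called lower with the covariate, at -0.61 (limma adjusted p = 0.0461), and without control replicate 2 none was called. Among dorsal horn genes, 0 of 19 passed, with a median of -0.11, from the opioid precursor Penk at -0.56 (SE 0.19, limma adjusted p = 0.182) to the peptide Gal at 0.43 (SE 0.21, limma adjusted p = 0.296). Without control replicate 2, 1 dorsal horn gene was called higher and 3 lower, Penk among them at -0.68 (limma adjusted p = 0.0273), and with the covariate Penk was at -0.25 and none was called. Of 10 sensory neuron genes, 1 passed at FDR below 0.1. This was Drgx, a homeobox gene of dorsal horn and root ganglion neurons carried under its older symbol Prrxl1, with control log2 signals of -0.55 to -0.37 and stressed ones of -1.01 to -0.76. It was lower in stressed rats by a log2 difference of -0.43 (SE 0.08, limma adjusted p = 0.0631), and by -0.42 with the covariate. The largest value in that list was that of Nefh, a neurofilament gene, at 0.33 (SE 0.25, limma adjusted p = 0.458). Nefh was called higher without control replicate 2, at 0.59 (limma adjusted p = 0.00548), and lower with the covariate, at -0.29 (limma adjusted p = 0.0696). Of the pan-neuronal genes, 1 of 12 passed and was lower, and of the oligodendrocyte genes, 1 of 10 passed and was higher.

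The mean level of the 10 genes, centred over the 8 arrays, was -0.10, 0.21, -0.10 and -0.03 in control replicates 1 to 4. It was 0.19, 0.03, -0.25 and 0.05 in the stressed rats, so the groups overlapped and both means were 0.00. For Chat, Slc18a3 and Slc5a7 alone it ran from -0.33 to 0.23 in control and from -0.35 to 0.30 in stressed rats. These ranges are wider than the -0.22 to 0.12 of the 19 dorsal horn genes, which are also more numerous. Stressed replicate 3 was the lowest rat for the dorsal horn genes as well. The caudal Hox genes ran from -1.71 to 0.40, with stressed replicate 3 the lowest. The oligodendrocyte genes were at -0.49, -0.44 and -0.28 in control replicates 1, 3 and 4 and between -0.01 and 0.47 in the other 5 rats. The part of these cell types in the member values was not tested.

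**Figure D4:**
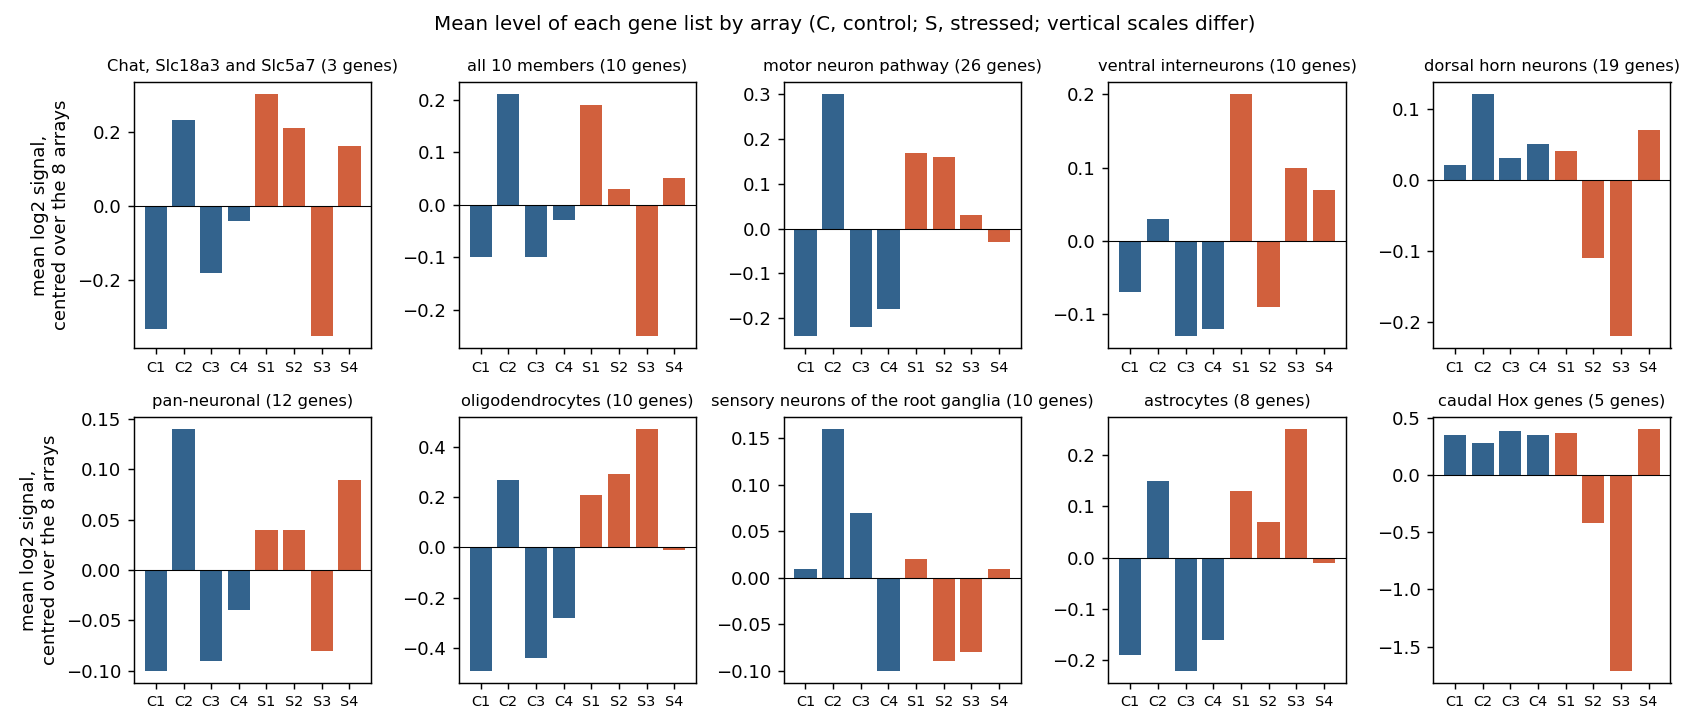
Mean log2 signal of each gene list, centred over the 8 arrays (vertical axes, each with its own scale), in control (C1 to C4, blue) and stressed (S1 to S4, orange) rats, with 1 bar per rat. The 10 genes range from -0.25 to 0.21 without a split between the groups. Stressed replicate 3 has the lowest bar for the 10 genes, for the dorsal horn genes at -0.22 and for the caudal Hox genes at -1.71.

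The genes whose signals ran closest to the mean of Chat, Slc18a3 and Slc5a7 across the 8 arrays were found among 13373 gene names. They were Cdkl4 (r = 0.994), Upk1a (0.974), Otop1 (0.970), Slc2a6 (0.959), St8sia3 (0.953), Ppcdc (0.953), Olr75 (0.953) and Nsg1 (0.952). They are the top of a long ranked list over 8 arrays, so that a high r alone is no finding. None of these 8 genes was called between the groups, with log2 differences from 0.04 to 0.69 (limma adjusted p from 0.453 to 0.864). Cdkl4, a cyclin-dependent kinase-like gene, had log2 signals of -5.20, -4.01, -4.82 and -4.52 in control rats and of -3.92, -4.13, -5.32 and -4.12 in stressed rats. Like Slc18a3 and Slc5a7, it was lowest in stressed replicate 3. The 10 genes themselves were not eligible for this ranking.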

How the data were processed

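RNA of the L6S1 cord was measured on Agilent 1-colour rat arrays. According to the file headers, the deposited intensity values were background-subtracted and detrended by Agilent Feature Extraction 10.7.3.1, with no normalization between arrays found. The authors' value table holds the same signal (503808 of 503808 values equal within 0.051). The methods name dChip and no test. Probe positions are on rn4.

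Control spots were left out and outlier spots set to missing. The log2 processed signal minus that of the array's 75th percentile was averaged over the spots of a probe. Probes well above background (at least 0.5 of their spots) on at least 4 of 8 arrays were tested with limma 3.58.1 (R 4.3.3, data.table version 1.17.8), without covariates, with Benjamini-Hochberg adjustment over 23677 probes. The fit was tested on simulated data drawn independently for each probe, which held no effect shared by the probes of an array. The probe with the highest mean stood for a gene. Correlations were tested by permutation. Probe pairs of 1 transcript at least 300 bases apart gave the 5′ minus 3′ difference.

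Beside all members, genes named were those of 5 neuron lists at FDR below 0.1 or with the largest rise or fall, and the 8 symbols nearest to the mean of Chat, Slc18a3 and Slc5a7. Members and lists were chosen with earlier results of these data known. Arrays give no counts, and their number limits the precision. Figures were drawn with matplotlib 3.10.9. Alternatives are given in the closing section. Proteins and promoters were not analysed here, and the Schwann cell list is not reported here.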

Additional observations from a re-analysis of the deposited data

Results flagged for a closer look

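The log2 signal of Ache in stressed replicate 3 was 0.97, against 1.36, 1.31 and 1.34 in the other stressed rats. Its gap to the nearest of them was 0.876 of the range of the group (Dixon's ratio), above the 95% critical value for 4 samples. Of the 24 groups of 4 values tested, 1 was past this value, and chance flags about 1 in 20 groups. Without stressed replicate 3 the difference in Ache was -0.18 (limma adjusted p = 0.347).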

How the results depend on the processing

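Of the 190 other values of the member differences, 168 kept the direction and the side of the threshold, 12 newly passed it and 10 changed sign. The sign changed for Isl2 under quantile normalization (-0.03), for Isl2 (-0.07), Chrm2 (-0.06) and Slc5a7 (0.21) with the 5′ minus 3′ covariate, for Slc5a7 without control replicate 1 (0.05), control replicate 3 (0.03), stressed replicate 3 (0.13) or stressed replicate 4 (0.01) (range -0.11 to 0.13 when 1 array was left out), and for Slc18a3 (0.09) and Slc5a7 (0.04) with control replicate 2 and stressed replicate 3 both left out, which was chosen after seeing the data. The count of member genes called at FDR below 0.1 was 0 with all arrays and 0 to 3 when 1 array was left out, with 3 called without control replicate 2. It was 3 with both arrays left out, 6 with array weights (Chat, Ache, Isl1, Isl2, Mnx1 and Chrm2, beside 50.6% of all probes) and 0 under all other settings. The count over all tested probes was 872. It was 231 with normexp background correction (offset 50), 3257 with no filter on dim probes, 1331 with a variance trend and robust estimation, 11979 with array weights, 2303 with the 5′ minus 3′ covariate, 9148 with both arrays left out and 0 to 10015 when 1 array was left out. The lowest counts, 0, were without control replicate 3, stressed replicate 1 or stressed replicate 2. The cause of these shifts was not tested. With replicate number as a block the count of probes was 0 and that of member genes 0. Same-numbered arrays deviated from their group means with r = 0.10, 0.12, -0.09 and 0.31, and 1 of the 4 numbers was closest to its own, so the numbers were not taken to pair the rats. The median r of the member pairs was 0.20 to 0.35 when 1 array was left out and 0.24 to 0.48 under the other settings.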
